A study of Homo sapiens with 10 samples.

Results

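MAP3K1, REL, ATXN1L, FAM171B and AAK1 are 5 genes whose mRNA was steeply lower with nutlin-3a in a control line of U2OS cells and changed little with the drug in lines carrying an shRNA against ARVCF. They are 5 of the 26040 genes listed, and were chosen by symbol because of that contrast, so their drug responses are given as descriptions with no test. All 5 were among the 14955 genes that passed the filter on low values, with at least 10 scaled fragments in at least 3 libraries. U2OS is a human osteosarcoma cell line. ARVCF encodes a catenin of the p120 family, and nutlin-3a blocks the ubiquitin ligase MDM2 and so stabilises p53. The series asks how ARVCF depletion alters transcription driven by p53. The groups were 3 shARVCF libraries with 10 µM nutlin-3a for 24 h, 3 shARVCF libraries without drug, 3 shCont libraries with 10 µM nutlin-3a for 24 h and 1 shCont library without drug. All cells were infected with lentivirus and selected in puromycin, shCont cells carrying a negative control shRNA. Each shARVCF replicate number is a line with its own shRNA, while the 4 shCont libraries come from 1 line. The labels describe the treated material as single clones.

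The 5 proteins act in separate pathways. MAP3K1 is a kinase at the top of the JNK cascade that phosphorylates MAP2K4 and MAP2K7 and also carries a ubiquitin ligase domain. REL is c-Rel, a transcription factor subunit of the NF-kB family best known from lymphocytes. ATXN1L is the paralog of ataxin-1 and binds the repressor CIC. FAM171B is a membrane protein of little described function. AAK1 phosphorylates the AP2 adaptor that recruits clathrin to the plasma membrane.

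The genes lie on 3 chromosomes (GENCODE release 29, GRCh38). MAP3K1 spans 56815574 to 56896152 on chromosome 5, plus strand. REL spans 60881521 to 60931610, FAM171B spans 186693971 to 186765965 (both plus strand) and AAK1 spans 69457997 to 69674349 (minus strand) on chromosome 2. ATXN1L spans 71845991 to 71885268 on chromosome 16, plus strand. Because the genes were chosen for moving together, the 250 bases before the RefSeq start site were searched for the 4 with an entry, and are shown here as far as GENCODE annotates no UTR in them. Capitals mark the motifs searched on both strands. These were GGGCGG (the GC box), CCAAT (bound by NF-Y), TATAAA (the TATA box), CACGTG (an E-box), CCGGAAG (an ETS site), the NF-kB consensus and the p53 half-site consensus.
REL (GRCh38.p14, chr2:60881324-60881520, plus strand): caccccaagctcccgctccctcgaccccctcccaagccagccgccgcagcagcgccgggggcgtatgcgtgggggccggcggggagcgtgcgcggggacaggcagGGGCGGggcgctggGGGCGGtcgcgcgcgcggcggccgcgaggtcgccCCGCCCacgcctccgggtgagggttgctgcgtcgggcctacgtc
ATXN1L (GRCh38.p14, chr16:71845726-71845975, plus strand): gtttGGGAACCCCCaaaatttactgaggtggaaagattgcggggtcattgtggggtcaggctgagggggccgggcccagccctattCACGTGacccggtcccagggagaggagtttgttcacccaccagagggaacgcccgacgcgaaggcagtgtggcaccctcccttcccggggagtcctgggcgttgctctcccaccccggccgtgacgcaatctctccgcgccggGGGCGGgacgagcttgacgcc
FAM171B (GRCh38.p14, chr2:186693810-186693970, plus strand): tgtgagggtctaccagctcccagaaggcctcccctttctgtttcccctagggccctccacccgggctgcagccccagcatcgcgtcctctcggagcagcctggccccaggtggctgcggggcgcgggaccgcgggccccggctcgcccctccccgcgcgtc
AAK1 (GRCh38.p14, chr2:69643740-69643989, minus strand): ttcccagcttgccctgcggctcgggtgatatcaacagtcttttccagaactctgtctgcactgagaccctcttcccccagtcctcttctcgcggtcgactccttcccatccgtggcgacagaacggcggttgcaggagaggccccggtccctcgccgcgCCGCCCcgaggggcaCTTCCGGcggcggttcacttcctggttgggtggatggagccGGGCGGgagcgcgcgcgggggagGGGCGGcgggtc
The last 53 bases of the REL window and the last 89 of the FAM171B window are annotated as UTR and not shown, and the AAK1 window lies inside the span that GENCODE gives that gene. All 4 windows held GGGCGG or its reverse complement, as did 42.3% of 27305 RefSeq promoters over the same length; the single match in FAM171B is in the part not shown. The REL window held 2 overlapping matches to the NF-kB consensus, both in the part not shown, and the ATXN1L window held 1, against 5.05% of all promoters with a match. CACGTG occurred in the ATXN1L window (6.49% of all promoters) and CCGGAAG in the AAK1 window (8.82%). None of the 4 windows held CCAAT (33% of all promoters), TATAAA (11.1%) or the p53 half-site consensus (5.53%), which says only that these letters are not in these windows. The windows held 36 CpG in REL, 26 in AAK1, 21 in FAM171B and 19 in ATXN1L, against a median of 11 over all promoters. In that order they exceeded 95.3%, 80.8%, 70.2% and 65.7% of all promoters. All these promoter shares include genes that were not tested here.

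Values are fragments per gene scaled across libraries by the authors. Scaled totals lay between 17821751 and 19903778. The estimated number of fragments before scaling lay between 15073578 and 21096205, and was lowest in shCont replicates 2 and 3 with nutlin-3a, which also listed the fewest genes above 0 (17229 and 17271, against 18090 to 18569 in the other 8 libraries). ARVCF averaged 1235 ± 48.3 scaled fragments in shARVCF libraries with nutlin-3a against 2625 ± 280 in shCont libraries with nutlin-3a (SD, n = 3 each), and 324.3 ± 28.3 in untreated shARVCF libraries (n = 3) against 617.7 in the untreated shCont library. The p53 target genes MDM2 and CDKN1A, which encodes p21, averaged 21549 ± 2504 and 29443 ± 3058.7 in shARVCF libraries with nutlin-3a and 2286 ± 435 and 3482 ± 962 without drug (SD, n = 3 each), and 10476 ± 879 and 32035 ± 3685 in shCont libraries with nutlin-3a (n = 3) against 2244 and 3999 in the untreated one. All 8 osteoblast and mesenchymal markers were detected, with a summed level of 222371 to 407750 over the 10 libraries. The 5 blood markers summed to 1.90 to 15.3, with CD3E, CD14 and LYZ among those under 10 in every library. The 4 epithelial markers summed to between 126 and 144 with nutlin-3a and between 320 and 617 without drug in the shARVCF lines, and to between 187 and 213 with nutlin-3a and 674 without drug in the shCont line. The 3 endothelial markers summed to 12.9 to 85.9. In bulk RNA, fewer cells of a type and less RNA per cell cannot be told apart.

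MAP3K1 showed the steepest fall of the 5 genes in the shCont line. Its lead over ATXN1L in the difference of the 2 nutlin-3a effects did not hold in every setting. It stood at 407.2, 377.4 and 362.2 scaled fragments in shARVCF lines 1, 2 and 3 with nutlin-3a, against 549.6, 527.5 and 495.2 in the same lines without drug. It stood at 27.3, 18.4 and 21.4 in the 3 shCont libraries with nutlin-3a, against 525.6 in the untreated shCont library. Only the shCont libraries with nutlin-3a were far below the rest. Each shARVCF library with nutlin-3a was also below each untreated shARVCF library, as for 28.4% of all genes tested. On the log2 scale with a pseudocount of 1, used throughout for fold changes, the nutlin-3a effect was -0.45 (SE 0.16) in the shARVCF lines and -4.51 (SE 0.23), or 22.8-fold, in the shCont line. The effect per shARVCF line was -0.43, -0.48 and -0.45, the narrowest spread between lines after that of ATXN1L.

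REL, the NF-kB subunit, had a similar profile. It stood at 531.6, 465.6 and 563.9 scaled fragments in shARVCF lines 1, 2 and 3 with nutlin-3a, against 607.7, 607.1 and 541.0 without drug. It stood at 40.8, 19.5 and 45.4 in the shCont libraries with nutlin-3a, against 556.7 in the untreated one. The shARVCF values with and without drug overlapped, and the shCont libraries with nutlin-3a lay far below both. The nutlin-3a effect was log2 -0.17 (SE 0.25) in the shARVCF lines, with lines 1 and 2 at -0.19 and -0.38 and line 3 at 0.06. It was -4.03 (SE 0.36), or 16.3-fold, in the shCont line.

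ATXN1L had the highest level per kilobase of the 5 in every group except the shCont line with nutlin-3a. It stood at 2501, 1689 and 2431 scaled fragments in shARVCF lines 1, 2 and 3 with nutlin-3a, against 2304, 1529 and 2207 without drug. It stood at 181.9, 207.6 and 163.4 in the shCont libraries with nutlin-3a, against 2549 in the untreated one. Line 2 was the lowest shARVCF line under both conditions, but its response was like that of the others, at log2 0.14 beside 0.12 in line 1 and 0.14 in line 3. The effect was 0.13 (SE 0.18) over the shARVCF lines and -3.79 (SE 0.26), or 13.8-fold, in the shCont line. ATXN1L shares its start region and strand with IST1, an ESCRT-III gene. IST1 averaged 3048 ± 32.3 in shARVCF libraries with nutlin-3a and 2757 ± 126 without drug (SD, n = 3 each), and 2694 ± 222 in shCont libraries with nutlin-3a (n = 3) against 2550.2 in the untreated one, so the deep loss of ATXN1L was not seen in IST1 (log2 0.076, SE 0.12, limma adjusted p = 0.613). ZNF821, which overlaps on the opposite strand, was higher with nutlin-3a in the shCont line (log2 0.90, SE 0.26, adjusted p = 0.00933).

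FAM171B differed in opposite directions in the shARVCF and shCont lines. It stood at 802.5, 869.6 and 696.4 scaled fragments in shARVCF lines 1, 2 and 3 with nutlin-3a, against 569.2, 582.4 and 424.0 without drug. It stood at 76.2, 36.1 and 57.0 in the shCont libraries with nutlin-3a, against 481.5 in the untreated one. Each shARVCF library with nutlin-3a was above each one without drug, as for 26.5% of all genes tested. The shCont libraries with nutlin-3a were the lowest of all. The effect was log2 0.60 (SE 0.23) in the shARVCF lines, at 0.49, 0.58 and 0.71 by line, and -3.13 (SE 0.33), or 8.78-fold, in the shCont line. ATXN1L also had opposite signs in every shARVCF line and every shCont library, but its positive values were small.

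AAK1 showed the shallowest difference. It stood at 1470.3, 1326 and 1309 scaled fragments in shARVCF lines 1, 2 and 3 with nutlin-3a, against 1156, 1366 and 1418 without drug. It stood at 293.2, 317.8 and 221.9 in the shCont libraries with nutlin-3a, against 1405 in the untreated one. The shARVCF values with and without drug overlapped, and the line with the highest value differed between the conditions. The effect was log2 0.06 (SE 0.13) in the shARVCF lines and -2.35 (SE 0.19), or 5.10-fold, in the shCont line. ANXA4, which overlaps AAK1 on the opposite strand and encodes an annexin, rose in both, with log2 2.11 (SE 0.13, limma adjusted p = 5.73e-08) in the shARVCF lines and 2.00 (SE 0.18, adjusted p = 1.69e-06) in the shCont line. The sources used here do not say whether reads were counted by strand.

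**Figure D1:**
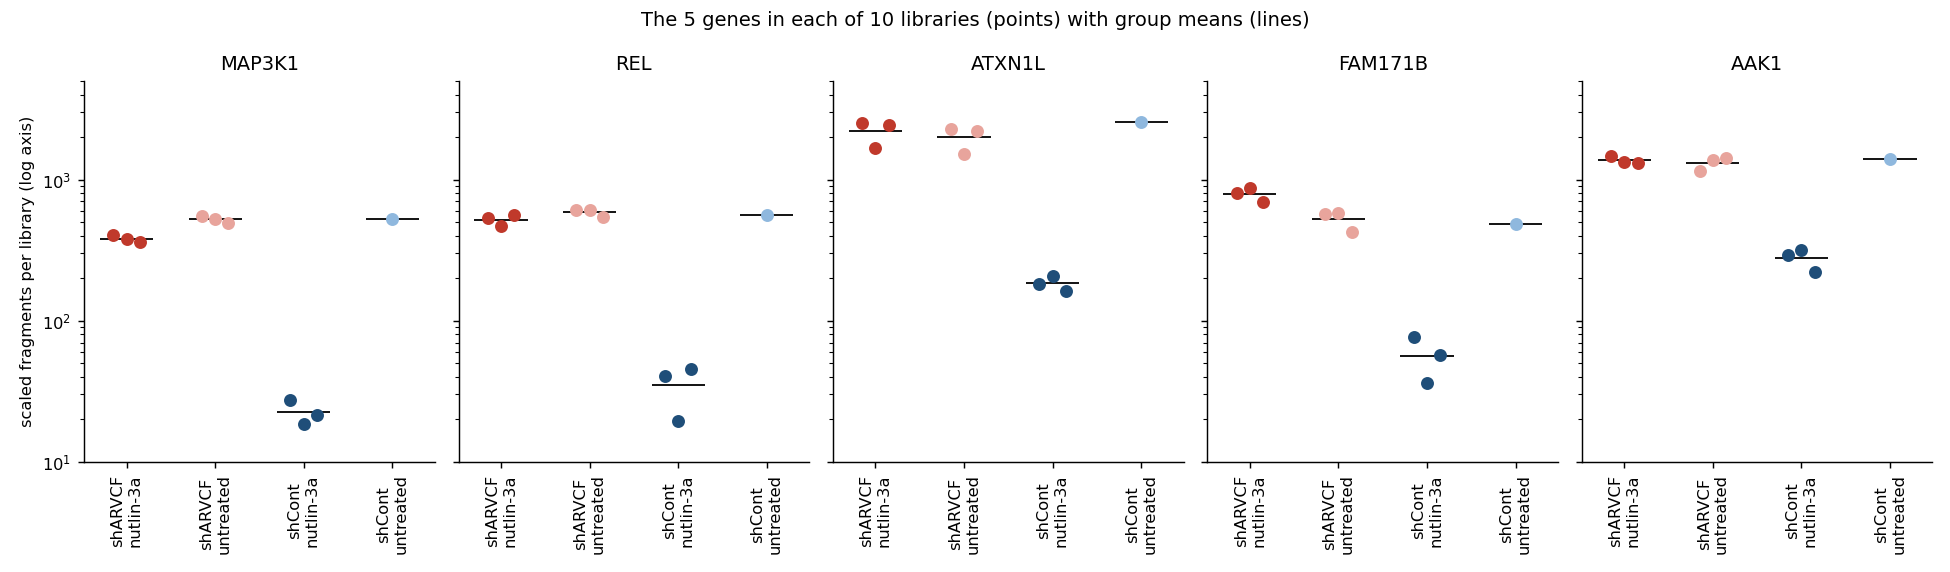
Scaled fragments (log axis) of the 5 genes in each of the 10 libraries, as points, with group means as lines; the untreated shCont group is 1 library. The 3 shCont libraries with nutlin-3a lie far below all others for every gene, from 18.4 for MAP3K1 to 317.8 for AAK1.

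The 3 shCont libraries with nutlin-3a agreed on the depth of the loss within 1.27-fold for ATXN1L, 1.43-fold for AAK1 and 1.48-fold for MAP3K1 (highest over lowest). They agreed less well for FAM171B (2.11-fold) and REL (2.34-fold), with replicate 2 the lowest of both. The SD of log2 values was 0.17 for ATXN1L, 0.27 for MAP3K1 and for AAK1, 0.53 for FAM171B and 0.64 for REL. Among genes with a mean within 2-fold in these libraries, the median SD was 0.18 around ATXN1L, 0.41 around MAP3K1, 0.16 around AAK1, 0.28 around FAM171B and 0.35 around REL. REL, FAM171B and AAK1 thus varied more than 85.3%, 86.4% and 83.9% of genes of like level, while MAP3K1 varied more than 27.6% and ATXN1L more than 46.9%. Few fragments lay behind the lowest values. MAP3K1 corresponded to an estimated 27.2, 14.3 and 16.5 unscaled fragments in shCont replicates 1, 2 and 3, and REL to 40.7, 15.1 and 35.1. Counting alone then gives a relative error of 19.2% to 26.5% for MAP3K1 and 15.7% to 25.7% for REL, but only 7.42% to 8.90% for ATXN1L. These errors cover counting only. Replicates 2 and 3 carry later library numbers than the other 8 libraries, but no label calls this a batch. Replicate 1, which shares the earlier range with the untreated library, alone gave effects of log2 -4.22 for MAP3K1, -3.74 for REL, -3.80 for ATXN1L, -2.64 for FAM171B and -2.26 for AAK1.

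For all 5 genes, each shCont library with nutlin-3a was below each shARVCF library with nutlin-3a, which held for 34.8% of all genes tested. Likewise each was below the untreated shCont library, as for 46.1% of genes. Both counts follow from how the genes were chosen. The shARVCF lines held 16.6-fold more MAP3K1 than the shCont line under nutlin-3a, 15.2-fold more REL, 14.3-fold more FAM171B, 11.8-fold more ATXN1L and 4.96-fold more AAK1. Every shARVCF library with nutlin-3a was below every one without drug for MAP3K1 alone among the 5, against 28.4% of all genes, and above it for FAM171B alone, against 26.5% of all genes.

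The order of the group means placed the shCont line with nutlin-3a lowest for each gene. The next group up did not overlap with it for any of them. Among the other 3 groups, MAP3K1 was lowest in the shARVCF lines with nutlin-3a, which did not overlap with the untreated lines, while the untreated shARVCF and shCont values overlapped. For REL all 3 overlapped with their neighbour in the order. For ATXN1L and AAK1 the shARVCF groups overlapped with each other, the untreated shCont library lay above all shARVCF libraries for ATXN1L, and for AAK1 it lay within them. For FAM171B the untreated groups overlapped, and the shARVCF lines with nutlin-3a stood above both. Per kilobase of spliced length the mean level in the shCont line with nutlin-3a was 24.5 for AAK1, 23.4 for ATXN1L, 9.68 for FAM171B, 3.19 for MAP3K1 and 3.13 for REL. In the untreated shCont library the level per kilobase was 124 for AAK1, 323 for ATXN1L, 82.7 for FAM171B, 75.0 for MAP3K1 and 49.5 for REL.

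Without drug, the 5 genes did not pass the test between the shARVCF lines and the shCont line. This comparison did not choose the genes as such, but the untreated shARVCF and shCont libraries both entered the choice. It is therefore no independent test of these genes. The difference was log2 -0.01 (SE 0.23) for MAP3K1, 0.07 (SE 0.36) for REL, -0.36 (SE 0.26) for ATXN1L, 0.11 (SE 0.33) for FAM171B and -0.10 (SE 0.19) for AAK1, each with a limma adjusted p of 1. ATXN1L was below the untreated shCont library in 3 of 3 shARVCF lines. The share of all genes with that order was not counted, so no difference is read from it. Over all genes tested, 3 (0.0201%) were called in this comparison with Benjamini-Hochberg adjustment and 237 (1.58%) had an unadjusted p under 0.05. With 1 untreated shCont library, its spread was taken from the other groups.

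Among all 14955 genes tested, a fall to log2 -2 or lower in the shCont line was seen in 8.2%, and such a fall together with a value of -0.5 or higher in the shARVCF lines in 1.77%. In the shCont line MAP3K1 had the 204th lowest effect, REL the 273rd, ATXN1L the 317th, FAM171B the 489th and AAK1 the 910th. The median effect of the 5 genes was log2 0.063 in the shARVCF lines, beside -0.0017 over all genes tested. In the shCont line it was -3.79, beside -0.096 over all genes tested.

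**Figure D2:**
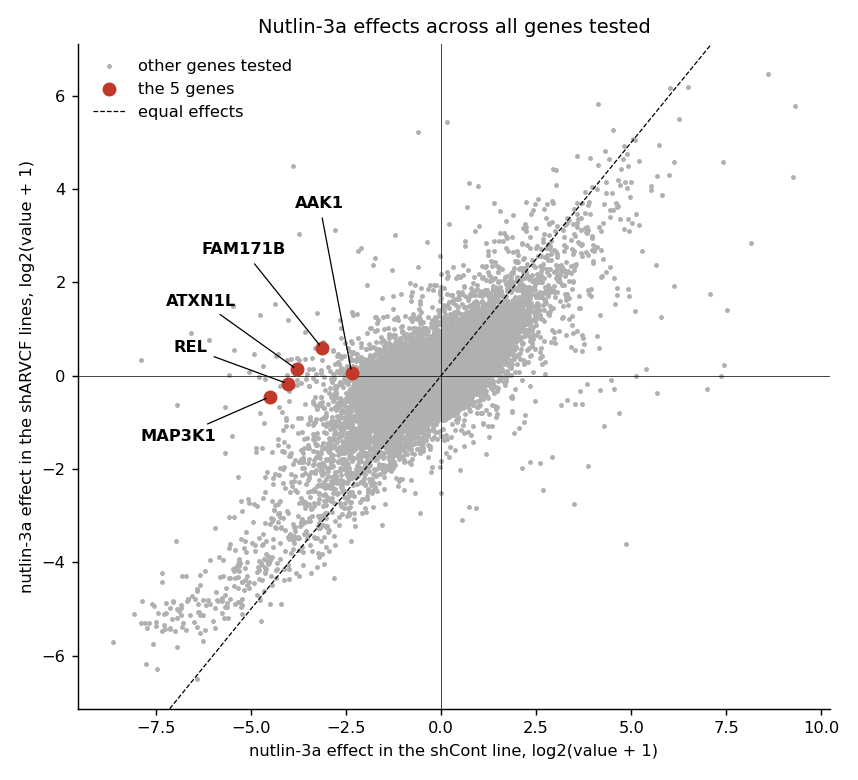
Nutlin-3a effect in the shARVCF lines (vertical) against that in the shCont line (horizontal), both as log2 fold changes, for every gene tested, with the 5 genes labelled. They lie at -0.45 to 0.60 on the vertical axis and at -4.51 to -2.35 on the horizontal one, left of the line of equal effects.

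Across the 10 libraries the profiles of the 5 genes were much alike, with Pearson correlations between 0.95 for ATXN1L with FAM171B and 0.99 for MAP3K1 with REL. The 3 shCont libraries with nutlin-3a stand apart in each of these profiles. The genes were chosen for that contrast, so the likeness follows from the choice and is no separate result. Among plainly named genes with a mean of at least 50, the 10 profiles most like the mean of the 5 included those of SCAF8, ZFR, ETV3, KIAA0754, DIP2B, BOD1L1, TAF2, PTPN11 and IL6ST, with correlations of 0.997 to 0.999 over the 10 libraries. ETV3, an ETS family repressor, averaged 379.3 ± 25.1 in the shARVCF lines with nutlin-3a and 332.0 ± 13.3 without drug (SD, n = 3 each), and 44.7 ± 8.15 in shCont libraries with nutlin-3a (n = 3) against 352.7 in the untreated one. IL6ST, the gp130 receptor chain shared by interleukin-6 cytokines, averaged 4302 ± 214 in the shARVCF lines with nutlin-3a and 4177 ± 286 without drug (SD, n = 3 each), and 319.1 ± 51.2 in shCont libraries with nutlin-3a (n = 3) against 3635 in the untreated one. Of the 10, 7 had a shallower loss than any of the 5 genes, such as PTPN11, the phosphatase SHP2, at log2 -1.42 in the shCont line. Likeness of profile is thus not likeness of size.

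The nearest profiles also differed by gene. They were FRYL, MKL2, a coactivator of serum response factor, and PTPN11 for MAP3K1. They were FAM135A, TCAF1 and TRIM33, a ubiquitin ligase of SMAD signalling, for REL. For ATXN1L they were CCNT1, the cyclin of the elongation factor P-TEFb, DUSP16, a phosphatase of JNK, and PRKAR2A, a regulatory subunit of protein kinase A. For FAM171B they were ARID4A, AP5M1 and KIAA1033, and for AAK1 they were TANC2, BIRC6, an inhibitor of apoptosis protein, and RAD54L2. All 15 of these correlations were 0.995 or higher. MKL2 shared the small negative effect of MAP3K1 in the shARVCF lines, at log2 -0.45, with -3.31 in the shCont line. ARID4A shared the positive effect of FAM171B there, at 0.34, with -1.38 in the shCont line.

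Counted by size rather than profile, 181 of 11881 plainly named genes with a mean of at least 50 had log2 -2 or lower in the shCont line and -0.5 or higher in the shARVCF lines, the 5 genes included. MAP3K1 ranked 5th, REL 7th, ATXN1L 12th, FAM171B 24th and AAK1 85th by depth of the loss. HOOK3 (-2.009) and ENAH (-2.002) lay just inside the limit of -2, and DMXL1 (-1.999) and SOGA3 (-1.998) just outside. The other 10 with the deepest loss included CHMP1B2P, PTPRK, KIAA0754, HTR7P1, POTEE, NBPF1, YTHDC1, ZBED6 and CCDC144B. Several of these rested on uneven libraries, such as PTPRK, a receptor tyrosine phosphatase gene, with 29.8 ± 33.1 in the shARVCF lines with nutlin-3a and 46.9 ± 70.6 without drug (SD, n = 3 each), and YTHDC1, an m6A reader, with an SE of 2.65 on the log2 scale in the shCont line. CHMP1B2P and HTR7P1 are named as pseudogenes, and POTEE, NBPF1 and CCDC144B have near-identical copies that share reads, so their values are uncertain. KIAA0754 (log2 -4.63, SE 0.22) and ZBED6 (-3.80, SE 0.23), a zinc finger repressor, had errors within the range of the 5 genes, but both lie inside other genes. HIF1A, the oxygen-sensing transcription factor, was chosen after its values were seen. It averaged 6763 ± 223 in the shARVCF lines with nutlin-3a and 7513 ± 534 without drug (SD, n = 3 each), and 512.5 ± 118 in shCont libraries with nutlin-3a (n = 3) against 6520.3 in the untreated one.

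The 5 genes share long mRNAs. Length itself was not used to choose them, but the shCont effect that was used went with length over all annotated genes (Spearman's rho -0.43). Shared length is thus no separate trait of these 5. The longest annotated transcript was 11345 bases for AAK1, 11255 for REL, 7886 for ATXN1L, 7011 for MAP3K1 and 5826 for FAM171B, against a median of 3492 over 13576 protein-coding genes tested. The 3' UTR took 9075 bases in REL, 8082 in AAK1, 5523 in ATXN1L, 3142 in FAM171B and 2472 in MAP3K1, against a median of 1323. GC content was 38.3% in FAM171B, 38.7% in REL, 42.2% in AAK1, 42.6% in MAP3K1 and 50.7% in ATXN1L, against a median of 48.8%. The shCont effect also went with GC content over all annotated genes (Spearman's rho 0.38), so low GC is no separate trait either. The pentamer ATTTA of AU-rich elements occurred 25 times in the 3' UTR of REL, 16 in AAK1, 11 in FAM171B, 5 in MAP3K1 and 4 in ATXN1L. Per kilobase of 3' UTR that is 2.75, 1.98, 3.50, 2.02 and 0.724, against a median of 1.64. ATXN1L was below that median. MAP3K1 and AAK1 were only slightly above it, exceeding 56.6% and 55.9% of these genes, and REL and FAM171B exceeded 69.3% and 79.7%. TATTTAT, which overlaps that pentamer, occurred in REL and FAM171B and in 35.4% of all these genes. Exon number ran from 3 in ATXN1L to 22 in AAK1.

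Over 14720 genes with an annotation, the nutlin-3a effect and spliced length had a Spearman's rho of -0.02 in the shARVCF lines and of -0.43 in the shCont line; genes are not independent replicates, and the same libraries enter every point. The 2464 other genes of 5826 to 11345 bases had a median effect of log2 -0.01 in the shARVCF lines and -0.83 in the shCont line, where the middle 90% ran from -2.82 to 0.99 and 336 were at -2 or lower. Of the 5 genes, AAK1 lay within that range and the other 4 below it. After the trend of each library with length and GC was removed, the effect in the shARVCF lines was log2 -0.36 for MAP3K1, 0.082 for ATXN1L, -0.095 for REL, 0.80 for FAM171B and 0.066 for AAK1. In the shCont line it was then -3.51 for MAP3K1, -3.09 for ATXN1L, -2.78 for REL, -2.05 for FAM171B and -1.23 for AAK1. Relative to their size, the log2 effects of AAK1 and FAM171B in the shCont line were thus reduced more than 1.5 times. In log2 units REL moved furthest, from -4.03 to -2.78. AAK1 alone no longer reached -2. Only 43 of the plainly named genes then met both limits, 35 of them among the earlier 181. Of those 181 genes, 95% were longer than the median gene tested.

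**Figure D3:**
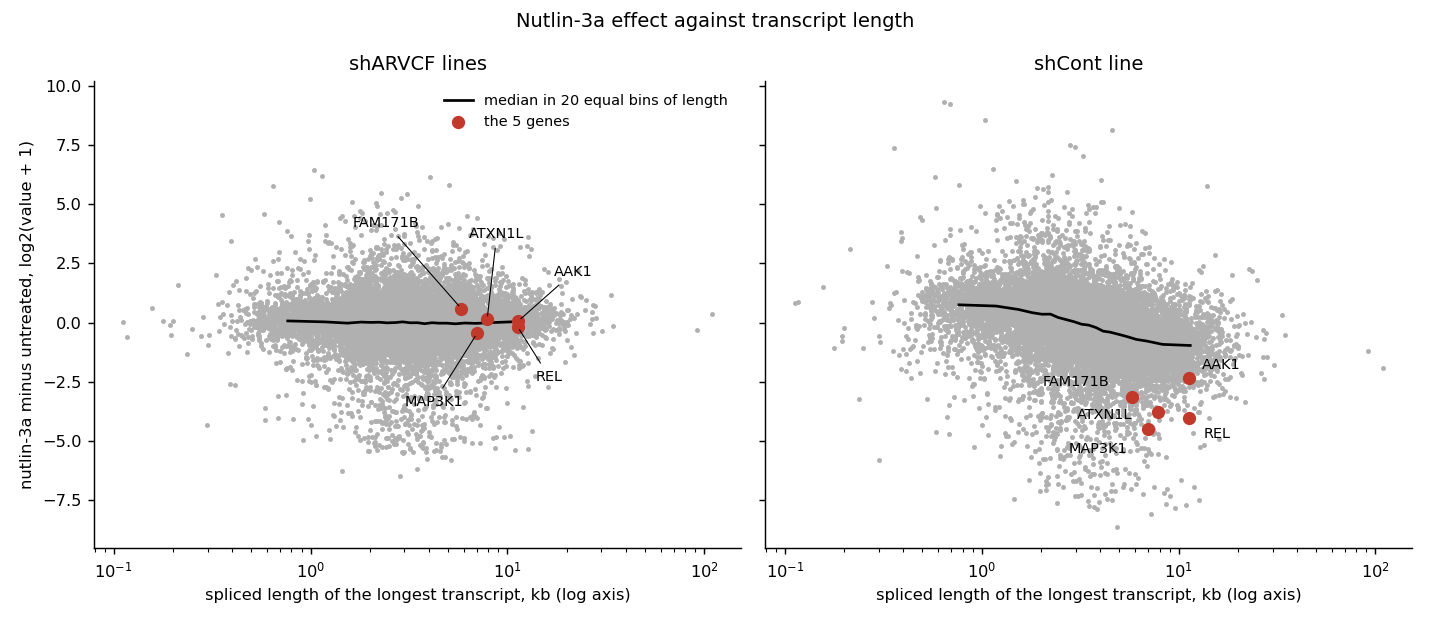
Nutlin-3a effect (log2 fold change) against spliced length in kb (log axis) for all annotated genes tested, in the shARVCF lines and in the shCont line, with the median in 20 equal bins as a line. The bin medians stay near 0 in the shARVCF lines and go down with length in the shCont line, where the 5 genes lie under them.

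**Figure D4:**
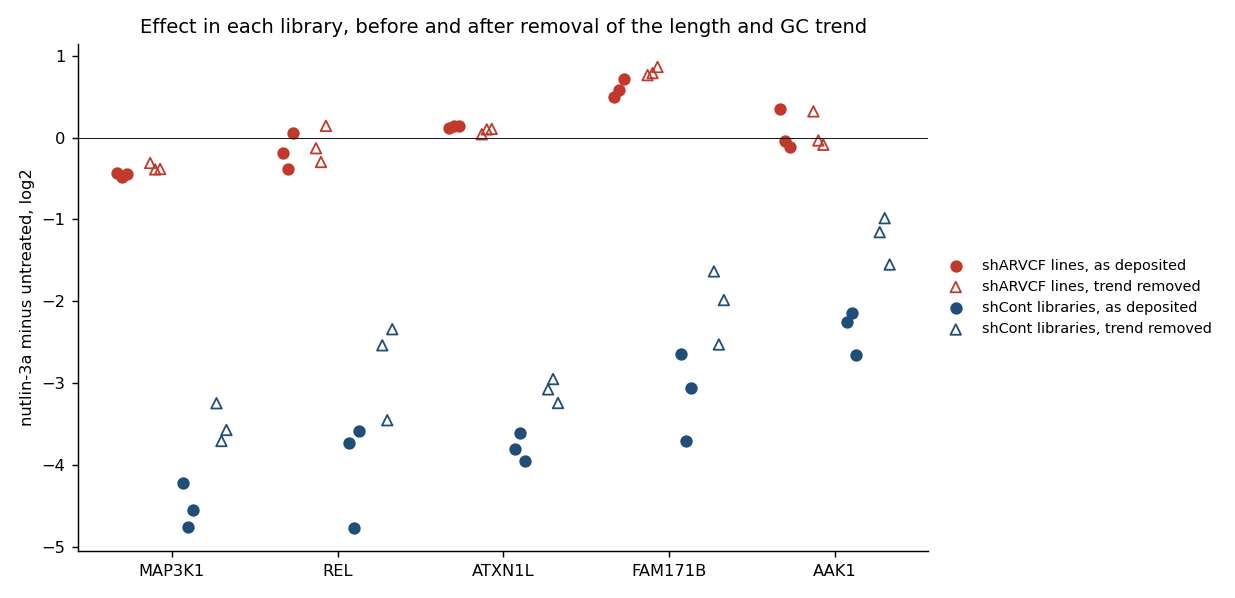
Nutlin-3a minus untreated (log2) in each of the 3 shARVCF lines, against its own untreated library, and each of the 3 shCont libraries, against the untreated shCont library, as deposited (filled circles) and after removal of the length and GC trend (open triangles). The shARVCF lines stay between -0.48 and 0.86, and the shCont libraries move up but remain at -0.98 or lower.

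Among genes of the JNK and p38 cascade around MAP3K1, the counts called were near the shares over all genes. Of 33 measured genes, 7 rose and 6 fell with nutlin-3a in the shARVCF lines, against 21.0% higher and 21.7% lower among all genes tested (list median log2 -0.059, all genes -0.0017). In the shCont line 6 rose and 12 fell, against 25.1% and 32.0% of all genes (list median 0.085, all genes -0.096). The difference of the 2 effects was called higher in 7 and lower in 3, against 19.3% and 12.5% of all genes. MAP3K2, a MAP3K1 paralog that feeds JNK and ERK5, averaged 1758 ± 41.5 in the shARVCF lines with nutlin-3a and 1977 ± 92.9 without drug (SD, n = 3 each), and 790.0 ± 90.8 in shCont libraries with nutlin-3a (n = 3) against 1928 in the untreated one. It fell in the shCont line (log2 -1.29, SE 0.14, limma adjusted p = 7.44e-06), but after removal of the length and GC trend its effect was 0.080 (adjusted p = 0.639). The MAP3K1 substrates MAP2K4 and MAP2K7 were not called in the shCont line (log2 -0.02 and 0.02), and MAP2K4 rose in the shARVCF lines (0.35, adjusted p = 0.0191). After trend removal MAP2K4 was called higher in the shCont line as well (0.66, adjusted p = 0.00123). MAP3K4 fell in both, with log2 -0.59 in the shARVCF lines (adjusted p = 0.000404) and -0.98 in the shCont line (adjusted p = 7.87e-05), and after trend removal its shCont call was lost (adjusted p = 0.101). MAP3K3 fell in the shCont line (-0.54, adjusted p = 0.00649). The smallest adjusted p for a difference of effects were those of TAB2, an adaptor of the kinase TAK1 (1.03, adjusted p = 0.000203), MAP4K3 (1.41, adjusted p = 0.000238) and the transcription factor ATF2 (1.34, adjusted p = 0.000243). After trend removal they were 0.36 (adjusted p = 0.0983), 0.76 (adjusted p = 0.00956) and 0.69 (adjusted p = 0.0292).

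None of the other 4 NF-kB subunits was called lower with nutlin-3a. Of 18 subunits and regulators, 9 rose and 0 fell in the shARVCF lines with nutlin-3a (list median log2 0.42), and 8 rose and 1 fell in the shCont line (0.43). Of all genes, 21.0% rose and 21.7% fell in the shARVCF lines, and 25.1% rose and 32.0% fell in the shCont line. The gene that fell, named after its value was seen, was CHUK, which encodes the kinase IKK-alpha. RELB, a subunit of the alternative pathway, averaged 702.1 ± 132 in the shARVCF lines with nutlin-3a and 365.0 ± 54.2 without drug (SD, n = 3 each), and 1154 ± 76.9 in shCont libraries with nutlin-3a (n = 3) against 301.5 in the untreated one. Its effect was log2 0.94 in the shARVCF lines (SE 0.14, adjusted p = 0.0002) and 1.93 in the shCont line (SE 0.20, adjusted p = 6.55e-06), so it rose in both. NFKB2 also rose in both (0.40, adjusted p = 0.0416, and 1.10, adjusted p = 0.000658). NFKB1 rose in the shARVCF lines (0.38, adjusted p = 0.00479) and stood at 0.13 (adjusted p = 0.419) in the shCont line. RELA was called in neither (0.08 and 0.28). The inhibitor genes NFKBIE and NFKBIB rose less in the shARVCF lines than in the shCont line, by log2 -1.13 (adjusted p = 0.00218) and -0.73 (adjusted p = 0.00443). After trend removal the difference of NFKBIB was -0.11 (adjusted p = 0.72) and that of RELB, -0.99 as deposited, was -0.45 (adjusted p = 0.236). Of 17 NF-kB target genes, 9 rose and 2 fell in the shARVCF lines, and 7 rose and 1 fell in the shCont line, beside the same shares over all genes. CCND1, cyclin D1, was the target with a called difference (0.44, adjusted p = 0.0347), which was 0.06 (adjusted p = 0.834) after trend removal.

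Of the partners of ATXN1L, ATXN1, or ataxin-1, averaged 1220 ± 143 in the shARVCF lines with nutlin-3a and 769.4 ± 14.7 without drug (SD, n = 3 each), and 629.2 ± 29.6 in shCont libraries with nutlin-3a (n = 3) against 832.0 in the untreated one. It rose in the shARVCF lines (log2 0.66, SE 0.10, adjusted p = 0.000227) and fell in the shCont line (-0.40, SE 0.14, adjusted p = 0.03), but after trend removal it was higher in the shCont line (0.54, adjusted p = 0.00412). CIC, the repressor, stood at 0.28 (adjusted p = 0.0866) in the shARVCF lines and fell in the shCont line (-0.49, adjusted p = 0.0315), a call lost after trend removal (adjusted p = 0.198). The differences of effect of ATXN1 (1.06, adjusted p = 0.000908) and CIC (0.77, adjusted p = 0.0168) were 0.056 (adjusted p = 0.869) and 0.41 (adjusted p = 0.216) after trend removal. Of 12 measured genes in the list of ATXN1, CIC and genes that CIC represses, 2 rose and 4 fell in the shARVCF lines, where 21.0% and 21.7% of all genes did, and 1 rose and 7 fell in the shCont line, where 25.1% and 32.0% did (list medians -0.21 and -0.45). The shCont median was 0.12 after trend removal, beside 0.0997 over all genes. The difference of the 2 effects was called higher in 5 and lower in 1 of the list, against 19.3% and 12.5% of all genes. Without the length and GC trend those counts were 0 and 2, beside 778 and 1217 of all 14720 annotated genes. ETV4, an ETS factor, stood at -0.23 in the shARVCF lines (adjusted p = 0.104) and was the listed gene that rose in the shCont line (log2 0.91, SE 0.15, adjusted p = 0.000249). SPRED1, an inhibitor of RAS signalling, fell in the shCont line (-1.08, adjusted p = 0.000145) and was at 0.10 (adjusted p = 0.584) there after trend removal.

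The 2 paralogs of FAM171B fell in both kinds of line. FAM171A1 averaged 1995 ± 74.8 in the shARVCF lines with nutlin-3a and 2859 ± 255 without drug (SD, n = 3 each), and 1293 ± 57.1 in shCont libraries with nutlin-3a (n = 3) against 3258 in the untreated one. Its effect was log2 -0.52 in the shARVCF lines (adjusted p = 0.000539) and -1.33 in the shCont line (adjusted p = 2.92e-06). That of FAM171A2 was -0.89 in the shARVCF lines (adjusted p = 0.00156) and -1.296 in the shCont line (adjusted p = 0.000824). FAM171B, at 0.60 in the shARVCF lines, therefore had the opposite sign to both paralogs there.

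Around AAK1, 11 of 32 measured genes of the NUMB-associated kinases, AP2 and clathrin rose and 6 fell in the shARVCF lines, and 7 rose and 15 fell in the shCont line (list medians log2 0.045 and -0.36). Of all genes, 21.0% were higher and 21.7% lower in the shARVCF lines, and in the shCont line 25.1% were higher and 32.0% lower. The difference of the 2 effects was called higher in 14 and lower in 5, against 19.3% and 12.5% of all genes. Without the length and GC trend those counts were 5 and 2, beside 778 and 1217 of all 14720 annotated genes. After trend removal the shCont list median was 0.065 (all genes 0.0997), and the median difference of effects was -0.12 in place of 0.17 (all genes -0.054 in place of 0.066). BMP2K, the closest paralog of AAK1, averaged 490.4 ± 61.6 in the shARVCF lines with nutlin-3a and 434.9 ± 31.8 without drug (SD, n = 3 each), and 191.3 ± 12.1 in shCont libraries with nutlin-3a (n = 3) against 457.0 in the untreated one. It was not called in the shARVCF lines (log2 0.17, adjusted p = 0.313) and fell in the shCont line (-1.25, SE 0.18, adjusted p = 7.65e-05). The difference, 1.42 (adjusted p = 0.000563), was 1.03 (adjusted p = 0.00799) after trend removal. GAK rose in both (0.31, adjusted p = 0.0188, and 0.68, adjusted p = 0.000909), and STK16 was called in neither (0.07 and 0.39). CLTC, the clathrin heavy chain, averaged 23034 ± 1754 in the shARVCF lines with nutlin-3a and 18399 ± 2012 without drug (SD, n = 3 each), and 6778 ± 655 in shCont libraries with nutlin-3a (n = 3) against 18443 in the untreated one. It rose in the shARVCF lines (0.33, adjusted p = 0.03) and fell in the shCont line (-1.45, adjusted p = 8.06e-06), a call lost after trend removal (-0.36, adjusted p = 0.0569). Of the endocytic scaffold genes, ITSN2 rose in the shARVCF lines (0.46, adjusted p = 0.00195) and ITSN1 fell there (-0.27, adjusted p = 0.0195). Both fell in the shCont line, ITSN2 with -1.18 (adjusted p = 1.29e-05) and ITSN1 with -1.23 (adjusted p = 2.58e-06). After trend removal these were -0.36 for ITSN2 (adjusted p = 0.0338) and -0.33 for ITSN1 (adjusted p = 0.0294), and the difference of effects was 0.86 for ITSN2 (adjusted p = 0.00418) and -0.13 for ITSN1 (adjusted p = 0.601).

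**Figure D5:**
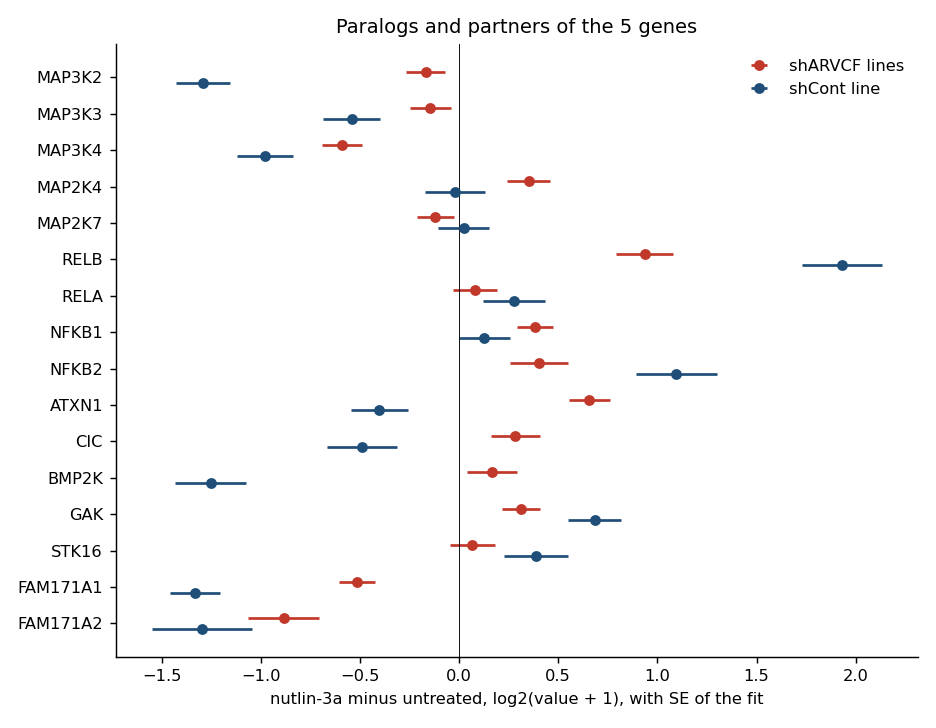
Nutlin-3a effect (log2 fold change, with the SE of the fit) of 16 paralogs and partners of the 5 genes in the shARVCF lines and in the shCont line. RELB lies at 0.94 and 1.93, FAM171A1 at -0.52 and -1.33, and all 16 lie above -2 in the shCont line.

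Among 34 immediate early and short-lived mRNAs, a class known for rapid turnover, 16 rose and 2 fell with nutlin-3a in the shARVCF lines, and 15 rose and 5 fell in the shCont line (list medians log2 0.34 and 0.40). The shares over all genes were 21.0% higher and 21.7% lower, and 25.1% higher and 32.0% lower, in the same order of lines. SOX4, a developmental transcription factor, stood at 0.0041 (SE 0.15, adjusted p = 0.985) in the shARVCF lines and fell in the shCont line (-2.02, SE 0.21, adjusted p = 5.82e-06). IER2 rose in the shCont line (1.22, adjusted p = 5.68e-05), and ZFP36L1, which encodes a protein that binds AU-rich elements, rose in the shARVCF lines (1.09, adjusted p = 3.31e-06).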

How the data were processed

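Poly(A) RNA of 10 U2OS libraries was sequenced after stranded preparation, per the labels' protocols. The submitters' processing notes name bcl2fastq 1.8.3, HISAT2 2.1.0, Cuffnorm 2.2.1 and build hg38; the sources used here do not give the annotation or the strand setting of counting. Per gene, the deposited signal is an estimated fragment number scaled per library by the authors. It is not whole: 51.6% to 58.2% of positive values were multiples of the lowest step of their library, within 0.01, and that step gave the estimated fragments. So no count test was run. A linear model of 4 group means was fitted to log2(value + 1) of the 14955 genes with at least 10 in at least 3 libraries (limma 3.58.1, R 4.3.3, trend and robust variances, 6 residual degrees of freedom). Tests were two-sided, with Benjamini-Hochberg adjustment over all genes at 0.05. The fit was also run on simulated data with the same independent spread for every gene and library. That run does not test it under the spread of these libraries. The spread behind each p-value is that between libraries, with the shCont libraries from 1 line, and may be technical.

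Of the symbols, 24016 matched GENCODE 29 by name and 661 by a RefSeq synonym. Length, GC and UTR are those of the longest basic transcript, which need not be the mRNA measured. Each library's trend with length and GC was removed by splines (4 degrees of freedom each, 14720 genes) as an alternative. The 5 genes and the gene lists were chosen with earlier results of these data known. Genes named for likeness had the highest Pearson correlation over 10 libraries; antisense, host, numbered locus, small RNA and read-through symbols were left out. List genes named are the 3 with the smallest adjusted p for the difference of effects, plus paralogs and partners. A few genes that these rules name are not reported here. Same-numbered shARVCF libraries come from the same line, and their deviations correlated (r 0.27, 0.29 and 0.33 across genes). The fit of 4 group means did not pair them, so differences of level between lines enter its SEs and adjusted p.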

Additional observations from a re-analysis of the deposited data

Results flagged for a closer look

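ATXN1L and FAM171B had a positive nutlin-3a effect in every shARVCF line and a negative one in every shCont library, with differences of log2 3.92 and 3.73. The genes were chosen for such a difference, which was not tested. The share of all genes with these signs was not counted. For ATXN1L the shARVCF effect was only 0.13 (SE 0.18), and it was -0.053 without untreated shARVCF replicate 2.

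For the list genes below, the difference of the 2 nutlin-3a effects (shARVCF minus shCont, log2) passed the limma test with Benjamini-Hochberg adjustment over all genes. All but MAP3K2, CIC and BMP2K are named because they had the smallest adjusted p of their list for this difference, so they are no sample of their lists. It was positive in the JNK cascade for TAB2 (1.03), MAP4K3 (1.41), ATF2 (1.34) and MAP3K2 (1.12). It was positive for ATXN1 (1.06), SPRED1 (0.87), CIC (0.77), CCND1 (0.44) and FAM171A1 (0.82). Among endocytosis genes it was positive for ITSN2 (1.63), CLTC (1.78), ITSN1 (0.96) and BMP2K (1.42), and among short-lived mRNAs for SOX4 (2.02) and ZFP36L1 (0.82). It was negative for NFKBIE (-1.13), NFKBIB (-0.73), RELB (-0.99), ETV4 (-1.13) and IER2 (-1.002). After removal of the length and GC trend the difference no longer passed the test for TAB2 (0.36, limma adjusted p = 0.0983), MAP3K2 (-0.097, adjusted p = 0.761), ATXN1 (0.056, adjusted p = 0.869), SPRED1 (-0.16, adjusted p = 0.593) and CIC (0.41, adjusted p = 0.216). The same held for CCND1 (0.057, limma adjusted p = 0.834), ITSN1 (-0.13, adjusted p = 0.601), NFKBIB (-0.11, adjusted p = 0.72) and RELB (-0.45, adjusted p = 0.236).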

How the results depend on the processing

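All 21 alternatives were run. In the shCont line the 5 genes kept their sign in each, and the largest shift came from removing the length and GC trend. The median effect of the 5 genes there, log2 -3.79, was -3.70 with a pseudocount of 10, -3.65 with upper-quartile scaling, -3.91 with library total scaling and -2.78 without the length and GC trend, and ran from -3.79 to -3.66 with a replicate left out. In the shARVCF lines the median, 0.06, ran from -0.053 to 0.12 with a replicate left out. There ATXN1L changed sign to -0.053 without untreated shARVCF replicate 2, and AAK1 to -0.027 without untreated shARVCF replicate 1. The median difference of effects, 3.86, was 3.53 with a pseudocount of 10, 3.57 with a term for the later library numbers or with the earlier numbers only, and 2.85 without the trend, and ran from 3.49 to 3.98 with a replicate left out. For the difference of effects MAP3K1 led ATXN1L, at 4.06 against 3.92. With a pseudocount of 10 ATXN1L led (3.86 against 3.61). ATXN1L also led with a term for the later library numbers or the earlier numbers only (3.93 against 3.77). The same held without the trend (3.17 against 3.15) and without replicate 2 of either nutlin-3a group. Under nutlin-3a the median, 3.84, was 2.84 without the trend. Without drug, MAP3K1 changed sign at 0.0096 with upper-quartile and 0.0099 with library total scaling, and its range with a replicate left out was -0.040 to 0.035, all far under its SE.

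Genes called for the difference of effects, 4756, were 1995 without the trend, with 778 higher and 1217 lower in place of 2893 and 1863. Under nutlin-3a, 8731 became 5729. The median effect of all genes in the shCont line, -0.096, was 0.039 with upper-quartile and -0.21 with library total scaling. Upper-quartile scaling turned the larger side in the shCont line to 4496 higher and 4196 lower, and in the shARVCF lines to 3542 and 2908. Without drug the 3 calls were 8 with a pseudocount of 0.1, 0 with one of 10, 1 with a filter of 50, 1 with the earlier library numbers only, 0 without the trend and 5 without the variance trend and robust weights, and 1 to 5 with a replicate left out. The 181 genes with the same fall were 43 without the trend and 168 to 204 with a replicate left out. Without shARVCF replicate 1 under nutlin-3a, MAP3K1 stood at -0.50, just past the limit of -0.5.

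Without the length and GC trend, the shCont effects of MAP3K2 (0.080), MAP2K4 (0.66), ATXN1 (0.54) and SPRED1 (0.096) and the differences of MAP3K2 (-0.097), SPRED1 (-0.16) and ITSN1 (-0.13) changed sign. With line as a replicate block, calls numbered 9239 in the shCont line, 7157 in the shARVCF lines and 5764 for the difference, within 1.5 times of the fit without it, and the fold changes of the 5 genes did not move. The causes of these shifts were not tested. The depth limits MAP3K1 and REL most, with an estimated 14.3 to 40.7 fragments in shCont libraries with nutlin-3a.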
